A study of Zea mays with 8 samples.

Results

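The tassel landscape of RAMOSA1 (RA1) is described here from 2 chromatin immunoprecipitation sequencing (ChIP-seq) libraries of maize tassel primordia, out of 8 samples in the series. The lists were chosen by tissue label, with earlier results of these data known, and every peak and summit on chromosomes 1 to 10 was kept. This gave 2875 of 2913 peaks for the HA library and 4797 of 4829 for the YFP library. The HA library comes from plants with the RA1-HA transgene (an HA-FLAG tag) and an anti-HA antibody, the YFP library from plants with the RA1-YFP transgene and an anti-GFP antibody. What both groups share is the labelled genotype ra1/ra1 B73, N-terminal tags, constructs meant to be expressed where RA1 normally is, and pooled tassel primordia of 1 to 5 mm taken about 4 weeks after planting. The plants descend from HiII transformants that were crossed to the ra1-R mutant and backcrossed, and the transgenes could complement the mutant. The sources used here do not say how many transformation events each construct had. The labels also give an input DNA library for each tag in tassel, which enters only through the authors' peak finding. Each tag has 1 library and its own antibody, so differences between HA and YFP have no replicate check, and tag, antibody, transgene and depth cannot be told apart.

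RA1 is a C2H2 zinc finger transcription factor of grasses. It acts in the inflorescence next to the spikelet pair meristems, the short-branch meristems that form a pair of spikelets, and restricts their growth so that they do not become long branches. Maize plants without RA1 function have highly branched tassels and branched ears. RA1 carries an EAR-type repression motif and can work with REL2, a corepressor of the TOPLESS family, and the genes ramosa2 (a LOB-domain factor) and ramosa3 (a trehalose-6-phosphate phosphatase) act in the same pathway. A ChIP-seq peak marks a stretch where the immunoprecipitated DNA was enriched over input, and its summit is the base with the deepest pile of fragments.

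RA1 peaks were spread over all 10 chromosomes with both tags, and both lists were densest toward the chromosome ends. The files held 1.399 HA peaks and 2.33 YFP peaks per Mb over a span of 2056 Mb, which runs on each chromosome to the last tassel peak. HA density went from 1.23 peaks per Mb on chromosome 9 to 1.51 on chromosome 5, and YFP density from 1.99 on chromosome 3 to 2.58 on chromosome 6. There were 1.67 YFP peaks for each HA peak in all, with 1.45 on chromosome 10 and 1.79 on chromosome 9 as the extremes. The outer 40% of the span (20% at each end) held more than 40% of the peaks on every chromosome with either tag. For HA this share lay between 42.0% on chromosome 9 and 50.4% on chromosome 1, and for YFP between 45.2% on chromosome 6 and 51.0% on chromosome 3.

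With the chromosomes laid over one another in steps of 5% of their span, the 2 tags gave the same outline. The first step held 1.93 HA and 3.42 YFP peaks per Mb, and the last held 1.97 and 3.64. Both lists were lowest between 35 and 40% of the span, at 0.885 HA and 1.48 YFP peaks per Mb. The median summit height was 4 fragments in every step and with both tags, a value that so many peaks share that the median could hardly move. The share of HA peaks that overlapped a YFP peak by at least 1 bp lay between 16.5 and 27.1% over the steps. It was 22.7% in the outer 40% of the span (95% interval 20.5 to 25.1) and 21.0% in the inner 60% (18.96 to 23.1), which overlap. Summits of at least 20 fragments made up 2.44% of HA peaks in the outer 40% (1.68 to 3.40) and 3.16% in the inner 60% (2.34 to 4.17). In YFP they made up 4.63% (3.81 to 5.56) and 4.75% (3.95 to 5.66), and the intervals overlapped in both lists. The outline is thus that of the whole lists, in which most peaks are low. The density of the high peaks alone along the span was not computed, so the outline is not shown to hold for them. The intervals given with shares, exact Clopper-Pearson intervals, cover counting error within a library only, and peaks are not replicates of a condition.

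**Figure D1:**
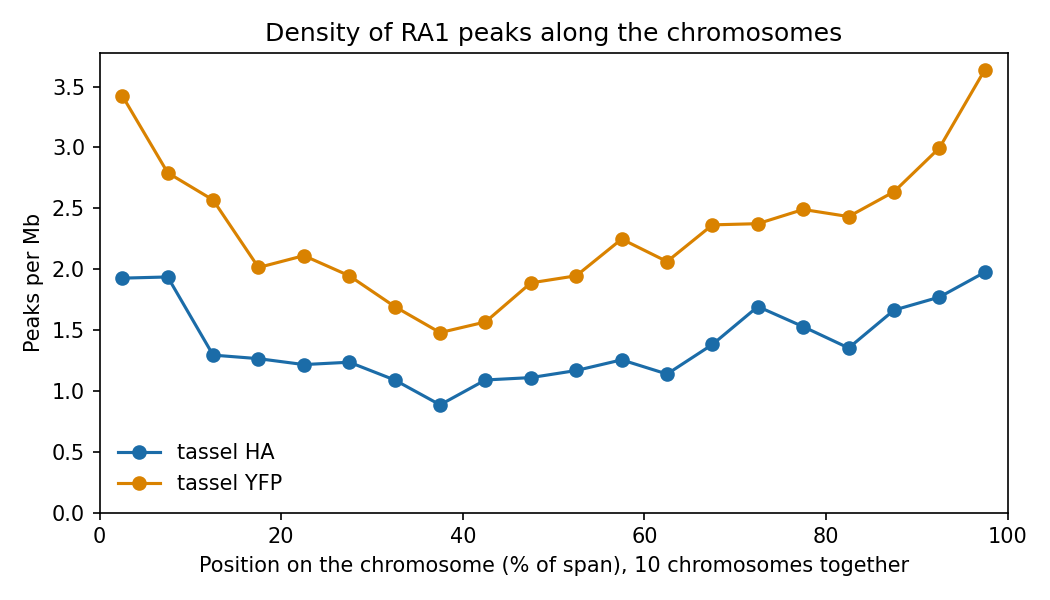
Peaks per Mb (y) against position as a percentage of the chromosome span (x), with the 10 chromosomes laid over one another in steps of 5%, for the tassel HA and the tassel YFP library. Each point is 1 step of 1 library. Both lines are lowest at 35 to 40% of the span (0.885 and 1.48 peaks per Mb) and high at both ends.

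The emptiest 20 Mb stretch of each chromosome, a measure chosen after the values were seen, was found in each list on its own. The HA and YFP stretches overlapped on 7 of the 10 chromosomes, by a median of 11 Mb. On chromosome 7 the HA stretch ran from 44 to 64 Mb with 15 peaks, where the chromosome's mean density gives 26.3, and the YFP stretch from 48 to 68 Mb with 21 peaks against 46.3. On chromosome 5 they ran from 67 to 87 Mb (18 HA peaks against 30.2) and from 71 to 91 Mb (26 YFP peaks against 47.7). The stretches did not meet on chromosomes 1, 3 and 10. The farthest apart were those of chromosome 3, which began at 129 Mb in HA and at 90 Mb in YFP.

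In windows of 1 Mb, most of the tassel genome held peaks of both tags, but window by window the counts followed each other only loosely. Of 2059 windows, 1356 held a peak of each tag (65.9%, 63.8 to 67.9), 421 held YFP peaks alone, 166 held HA peaks alone and 116 held none (5.63%, 4.68 to 6.72). A window with an overlapping HA and YFP peak was less common, at 518 windows by the HA summit (25.2%, 23.3 to 27.1). HA left 26.1% of windows empty (24.2 to 28.0) and YFP 13.7% (12.2 to 15.3). With both lists limited to 2875 peaks, the highest by score, the YFP share was 27.9%. Empty windows made up 3.76% of the windows in the outer 40% of the span (2.57 to 5.29) and 6.89% of those in the inner 60% (5.54 to 8.45), intervals that do not overlap.

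Counts per window had a mean of 1.396 and a variance of 1.63 for HA, and a mean of 2.33 and a variance of 3.04 for YFP. The ratio of variance to mean was 1.17 and 1.31, where independent scatter gives a ratio near 1. Windows without an HA peak held 1.69 ± 1.38 YFP peaks (SD, 537 windows), those with 2 HA peaks held 2.54 ± 1.68 (SD, 461 windows), and those with 6 held 4.12 ± 2.34 (SD, 17 windows). From 0 to 6 HA peaks, the SD at each HA count was larger than the step to the next count. Over the 2059 windows Pearson's r between the tags was 0.29 and Spearman's rho 0.27. Both were lower, at 0.10 and 0.11, when the overlapping peaks were left out of both lists. By chromosome r ranged from 0.14 on chromosome 10 (150 windows) to 0.35 on chromosome 6 (169 windows). In windows of 10 Mb, a size added after the values were seen, r was 0.60 and rho 0.59 over 210 windows, and 0.42 for both without the overlapping peaks. These coefficients describe the 2 lists and carry no p, because the windows share the genome build, its mappable sequence and the gradient toward the chromosome ends.

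**Figure D2:**
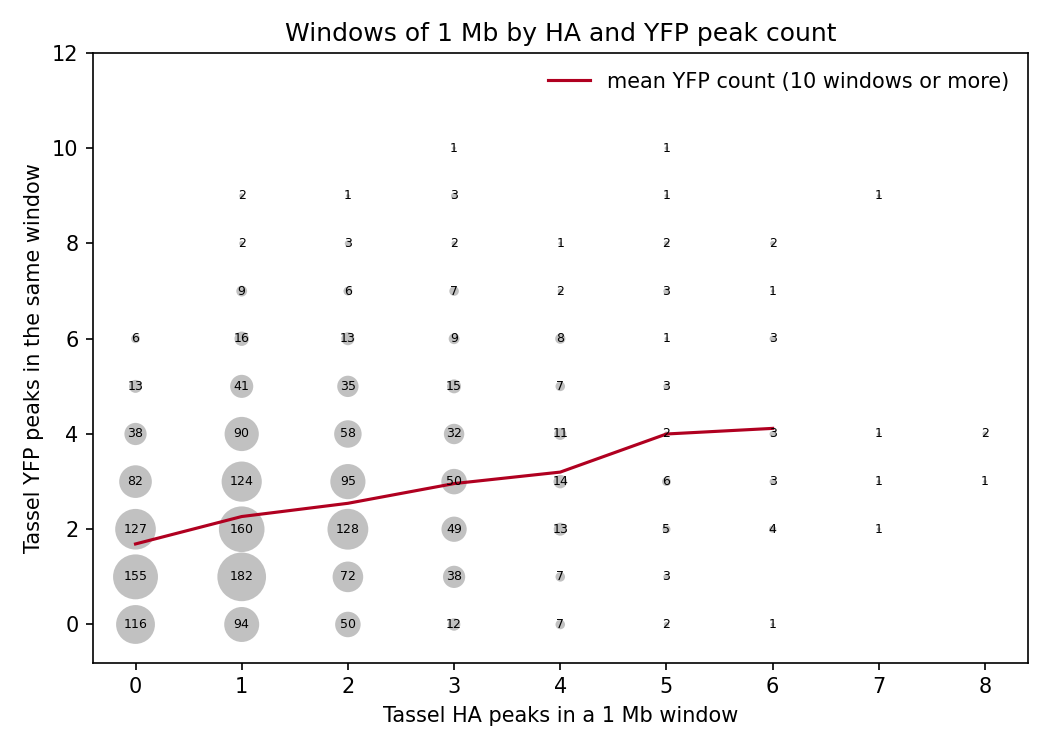
Windows of 1 Mb by the number of tassel HA peaks (x) and tassel YFP peaks (y) they hold, where each circle and its number give the count of windows. The red line is the mean YFP count for HA counts with at least 10 windows; it climbs from 1.69 at 0 HA peaks to 4.12 at 6, with wide scatter at every HA count.

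The 10 most crowded windows, ranked by the sum of the shares that the window took of each list, lay on 8 chromosomes. The first was at 164 to 165 Mb on chromosome 6, with 7 HA and 9 YFP peaks, of which 6 in each list overlapped the other tag. The window at 134 to 135 Mb on chromosome 8 came next with 5 HA and 10 YFP peaks, and it held the highest HA summit of the genome, at 174 fragments. A pair of windows with 6 HA and 8 YFP peaks each followed, at 271 to 272 Mb on chromosome 1 and at 7 to 8 Mb on chromosome 2. The chromosome 2 window had as many peaks as the chromosome 1 window but lower HA summits, with the highest at 6 fragments against 42.

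Some of the crowded windows were more crowded with 1 tag than with the other. The window at 172 to 173 Mb on chromosome 4 held 8 HA and 4 YFP peaks, of which 1 pair overlapped, and that at 215 to 216 Mb on chromosome 3 held 8 HA and 3 YFP peaks with 2 pairs. The window at 86 to 87 Mb on chromosome 9 held 8 HA and 4 YFP peaks, of which 3 in each list overlapped the other tag. These 3 windows had the largest HA count of any window, and their YFP counts were also above the YFP mean of 2.33 per window. The largest YFP count, 10, was reached on chromosome 8 as above and at 2 to 3 Mb on chromosome 5, which held 3 HA peaks. The other windows among the 10 were at 214 to 215 Mb on chromosome 5 (5 HA and 9 YFP peaks), at 5 to 6 Mb on chromosome 2 (6 and 7) and at 15 to 16 Mb on chromosome 6 (5 and 8). Of the 26 windows with at least 4 HA and 6 YFP peaks, limits set after the counts were seen, 23 lay in the outer 40% of the span.

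Long stretches without any tassel peak were few. The longest with no peak of either tag ran on chromosome 5 from 77575153 to 80827809, which is 3.25 Mb, and the next on chromosome 7 from 29268408 to 32418019, 3.15 Mb. The other 3 of the 5 longest were all on chromosome 1, from 108470186 to 110907475, from 123600045 to 126031576 and from 134109189 to 136528372, each between 2.42 and 2.44 Mb long. In all, 26 stretches reached 2 Mb, with a summed length of 58.9 Mb on 8 chromosomes, and 6 of them had their middle in the outer 40% of the span. With HA alone the longest stretch was 6.32 Mb on chromosome 4, from 89356649 to 95677857, and it held 5 YFP peaks. With YFP alone it was 4.43 Mb on chromosome 5, from 76727818 to 81156129, and it held 3 HA peaks. On the grid of 1 Mb windows, 106 empty windows stood alone and 5 runs were 2 windows long, and there was no longer run. All coordinates are in the maize build AGPv2, the name the files' sequences carry, and the genes in these stretches were not analysed here.

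Neighbouring peaks lay far apart as a rule, with a small fraction packed closely. The gap from the end of a peak to the start of the next had a median of 478 kb for HA (quartiles 178 and 988 kb) and 273 kb for YFP (98.3 and 600.3 kb). The median was 0.668 of the mean gap in HA and 0.638 in YFP, against 0.693 for independent scatter at an even rate. Gaps under 1 kb made up 1.26% of HA gaps (0.882 to 1.74) and 2.19% of YFP gaps (1.80 to 2.65). Gaps under 10 kb made up 4.19% (3.48 to 4.99) and 6.89% (6.19 to 7.65). With both lists limited to 2875 peaks the YFP share under 10 kb was 5.62%, against 4.19% in HA. No interval was computed for this YFP share, so it does not settle whether the lists stay apart at equal length. That comparison was added after the values were seen.

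**Figure D3:**
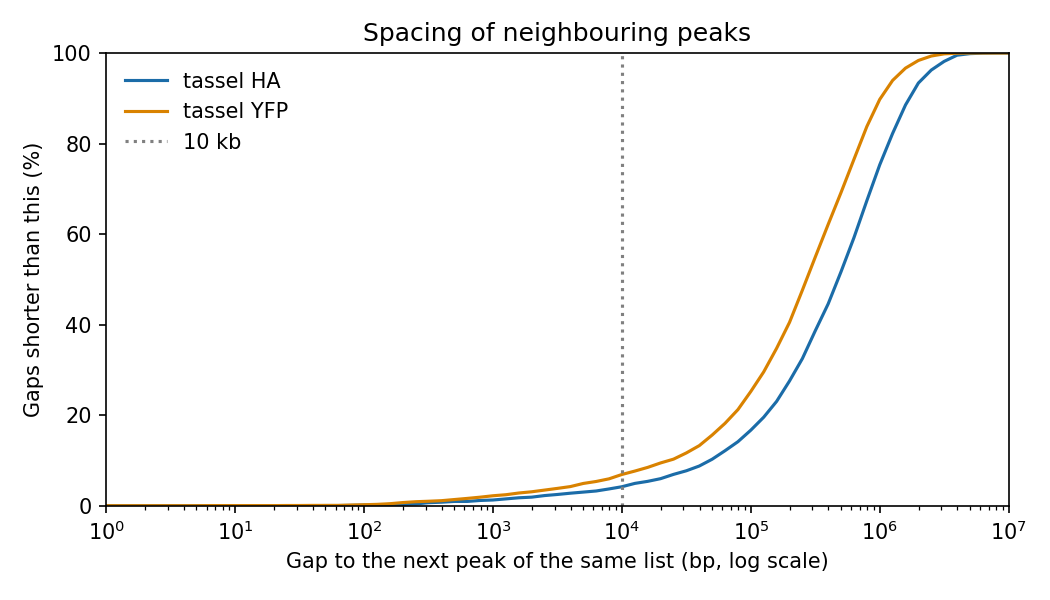
Share of gaps between neighbouring peaks of the same list (y, percent) that are shorter than a given length (x, bp on a log scale), for tassel HA and tassel YFP. The dotted line marks 10 kb, below which lie 4.19% of HA and 6.89% of YFP gaps; the medians are 478 and 273 kb.

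Peaks linked by gaps under 10 kb formed 105 clusters in HA and 295 in YFP. They took in 225 HA peaks (7.83%, 6.87 to 8.87) and 625 YFP peaks (13.0%, 12.1 to 14.01). Most were pairs, 94 with HA and 267 with YFP, and the largest cluster of each list had 5 peaks. A peak of the other tag lay within 42 of the 105 HA clusters (40%, 30.6 to 50.02) and 87 of the 295 YFP clusters (29.5%, 24.3 to 35.1). A cluster of the other tag was met by 24 HA clusters (22.9%) and 24 YFP clusters (8.14%). Clustered peaks were more often high: a height of at least 5 fragments was reached by 34.7% of clustered HA peaks (28.5 to 41.3) and 21.8% of lone ones (20.2 to 23.4), and by 50.6% of clustered YFP peaks (46.6 to 54.5) and 39.4% of lone ones (37.9 to 40.9). An overlap with the other tag was found for 28% of clustered HA peaks (22.2 to 34.4) and 21.3% of lone ones (19.7 to 22.9), whose intervals overlap. For YFP it was 17.0% (14.1 to 20.1) against 12.5% (11.5 to 13.6), and those do not.

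The largest clusters ranged from those with the same number of peaks in both tags to those of a single tag. On chromosome 6 from 164519779 to 164524422, within the most crowded window, 4 HA peaks had summit heights of 6, 5, 7 and 13 fragments along the chromosome, and 4 YFP peaks lay on them with heights of 4, 5, 8 and 14. The 4 peaks thus kept the same order of height with both tags apart from the first 2. Their widths were 700, 385, 519 and 1320 bp in HA and 477, 448, 468 and 1281 bp in YFP. On chromosome 8 from 134900969 to 134908805, 5 YFP peaks had heights of 64, 164, 68, 10 and 97. HA had 2 peaks there, of 54 and 174 fragments, and the second ran for 6109 bp beneath the last 4 YFP peaks.

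Another cluster, on chromosome 8 from 166817750 to 166828865, had unequal heights. Its HA peaks reached 4, 17 and 6 fragments, and the YFP peaks over the last 2 of them reached 75 and 35. On chromosome 4 from 6275083 to 6293691, 4 YFP peaks of 7, 4, 3 and 12 fragments were joined by HA peaks of 5, 7 and 4 fragments, at the outer 2 only. Of the 5 YFP clusters with 4 peaks, one on chromosome 1 (89234933 to 89248557) and one on chromosome 9 (131253018 to 131258875) each reached 12 fragments and held 1 HA peak, of 4 fragments.

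In 3 of the 5 largest HA clusters there was no YFP peak. The cluster with the most peaks, on chromosome 10 from 130564012 to 130572747, had 5 HA peaks of 4, 6, 3, 3 and 3 fragments. On chromosome 4, an HA cluster of 3 peaks (9, 11 and 5 fragments) from 172380432 to 172390224 was followed by one of 4 (5, 9, 7 and 12 fragments) from 172407292 to 172425782. These 7 peaks are most of the 8 that put this window of chromosome 4 among the most crowded. Their scores, on a scale read as minus 10 log10 of the p-value from the peak finder, lay between 51.7 and 116, where the limit that admits a peak is 50 and the median of the HA list is 69.9.

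Summit heights were low for most peaks and very high for a few. A height of exactly 4 fragments was the commonest, in 1390 HA peaks (48.3%, 46.5 to 50.2) and 1763 YFP peaks (36.8%, 35.4 to 38.1). Heights of 2 and 3 were found for 471 and 359 HA peaks and for 441 and 635 YFP peaks. A height of 4 or less thus covered 77.2% of HA (75.6 to 78.7) and 59.2% of YFP peaks (57.8 to 60.6). Summits of at least 20 fragments numbered 81 in HA and 225 in YFP, and those of at least 50 numbered 41 and 68. The highest were 174 fragments in HA and 169 in YFP. The top 1% of peaks, 28 in HA and 47 in YFP, carried 17.3% and 13.7% of the summed height of their list. Heights are whole fragments not scaled to depth, and the total reads of the libraries are unknown here.

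Overlap with the other tag went from almost none to complete as the summit rose, but most peaks had no partner. At any height, 627 of the 2875 HA peaks met a YFP peak, a share of 21.8% (20.3 to 23.4), and 2248 did not. In the YFP list 629 of 4797 met an HA peak, which is 13.1% (12.2 to 14.1), and 4168 did not. Of HA peaks with a height of 2, 5 of 471 overlapped a YFP peak (1.06%, 0.346 to 2.46). The share was 11.4% at a height of 4 (9.81 to 13.2), 58.7% at 5 to 9 (54.2 to 63.1), 91.5% at 10 to 19 (83.2 to 96.5) and 41 of 41 peaks at 50 or more (91.4 to 100%). YFP peaks needed greater height for the same share. They overlapped an HA peak in 2.67% of cases at a height of 4 (1.97 to 3.53), 15.1% at 5 to 9 (13.2 to 17.2), 41.8% at 10 to 19 (36.997 to 46.7), 81.5% at 20 to 49 (74.6 to 87.3) and 68 of 68 at 50 or more (94.7 to 100%). Overlapping HA peaks had a median height of 6 fragments and the rest 4, while overlapping YFP peaks had a median of 12 and the rest 4.

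Over all HA summits, overlapping pairs included, the nearest YFP summit was mostly more than 10 kb away. Such distances depend on the density of the lists, and no baseline for independent scatter was computed. The nearest YFP summit lay within 10 bp of 390 HA summits (13.6%, 12.3 to 14.9) and at 11 to 100 bp from 171 more (5.95%). It lay beyond that but within 1 kb of 94 (3.27%), and at 1 to 10 kb from 160 (5.57%). For 699 HA summits (24.3%) it was between 10 and 100 kb away and for 1323 (46.0%) between 100 kb and 1 Mb. The median over all HA summits was 87.9 kb. Of 627 HA peaks paired with the highest YFP peak that overlapped them, 210 had summits at most 2 bp apart and 389 at most 10 bp (62.0%).

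Among strong pairs, 2 groups were set apart by limits on the YFP to HA height ratio, with no empty gap between them. Of 98 pairs with a summed height of at least 50 fragments, 57 had a log2 ratio within 0.5 of 0 and 33 had a log2 ratio of at least 1, while 7 lay between and 1 below. These limits were set after the heights were seen, and the groups are a description with no test. The log2 steps from 0 to 0.5, 0.5 to 1, 1 to 1.5 and 1.5 to 2 held 34, 7, 7 and 10 pairs. In the 57 pairs of near equal height, HA heights ran from 24 to 174 fragments with a median of 64, and YFP heights from 22 to 169 with a median of 68. In the 33 pairs higher with YFP, HA heights ran from 6 to 53 with a median of 16, and YFP heights from 38 to 137 with a median of 62. The limits on ratio and summed height themselves hold HA low in the second group, so the gap between the HA medians is no finding. Summits agreed as closely in both groups, with median distances of 5 and 3 bp.

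The 2 groups of strong pairs had separate intervals for their place on the span at the limits above, but overlapping intervals under each other limit tried. The pairs higher with YFP had the larger outer share at every limit. Of the near equal pairs, 17 of 57 were in the outer 40% of the span (29.8%, 18.4 to 43.4), and of the pairs higher with YFP, 21 of 33 were (63.6%, 45.1 to 79.6). These intervals do not overlap. They do overlap with a summed height of at least 30, at 35.2% of 71 pairs (24.2 to 47.5) against 57.6% of 85 (46.4 to 68.3), and with one of at least 100, at 28.2% of 39 (15.0014 to 44.9) against 66.7% of 9 (29.9 to 92.5). With log2 limits of 0.25 and 1.5 they overlap as well, at 28.3% of 46 pairs (15.99 to 43.5) against 61.5% of 26 (40.6 to 79.8). All overlapping HA peaks stood between, at 49.1% (45.1 to 53.1). At HA heights of at most 53 fragments, the range of the pairs higher with YFP, the near equal share was 38.1% of 21 pairs (18.1 to 61.6), which overlaps the interval of the other group. Both groups had members on each of the 10 chromosomes. Chromosome 8 had the most near equal pairs, 10 against 4 higher with YFP, and chromosome 6 was reversed, with 2 against 4.

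**Figure D4:**
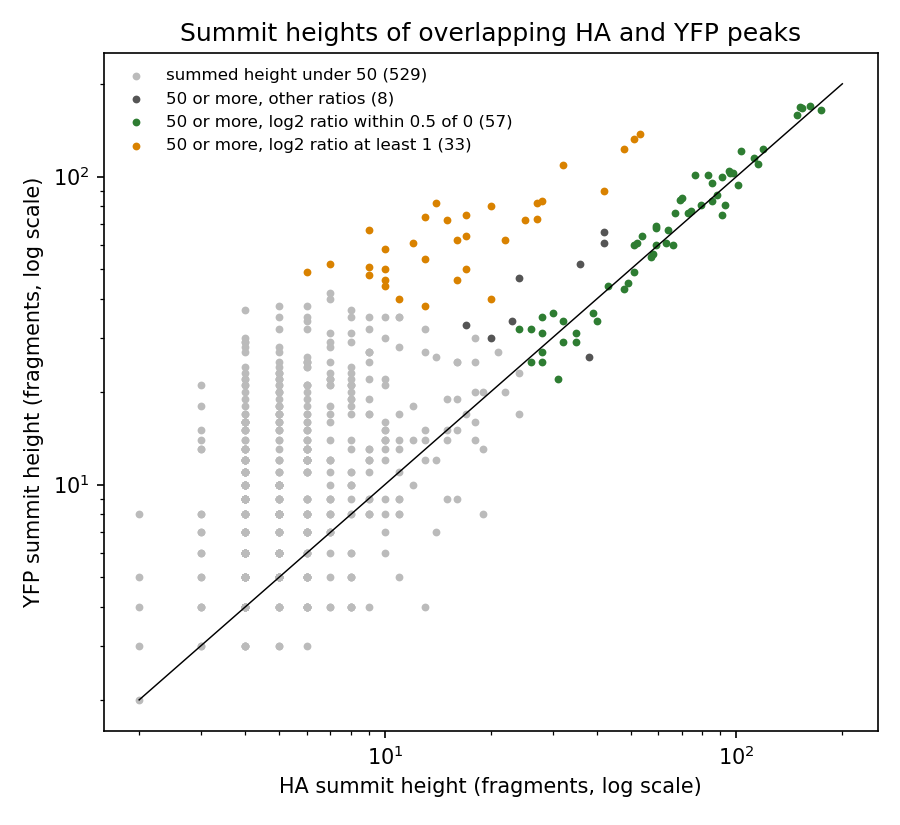
Summit height with YFP (y) against summit height with HA (x), both in fragments on log scales, for 627 overlapping pairs in tassel. The line marks equal heights. The 57 strong pairs near the line reach 174 fragments in HA. The 33 strong pairs above it stay at or below 53 fragments in HA, where the limits on ratio and summed height themselves hold HA low.

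The 10 pairs whose lower summit was highest all had near equal heights, which this ranking itself favours. The first was the long region on chromosome 8 from 134902740 to 134908848, with 174 fragments in HA and 164 in YFP. It was followed by chromosome 1 from 168908566 to 168909196 (162 and 169), chromosome 4 from 156341289 to 156342426 (154 and 167), chromosome 5 from 54214503 to 54215067 (152 and 168) and chromosome 7 from 53726127 to 53726974 (149 and 158). The remaining 5 had lower summits between 98 and 119 fragments, on chromosome 5 from 118614977, chromosome 2 from 48392508, chromosome 8 from 9420278, chromosome 1 from 51463251 and chromosome 3 from 8626485. The log2 ratio over these 10 ran from -0.09 to 0.23. No summit was above 174 fragments in HA or 169 in YFP, so pairs with a lower summit of at least 98 could not be very unequal. The near equality is therefore no finding about these pairs. Their scores cannot rank them, since 16 HA and 25 YFP peaks share a score of exactly 3100.

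The largest ratios among strong pairs were on chromosome 1 from 152376021 to 152376754, with 6 fragments in HA and 49 in YFP, and a pair of chromosome 6 (138678612 to 138678967) with 9 and 67. They were followed by chromosome 8 from 29249123 to 29249546 (7 and 52), chromosome 5 from 51156766 to 51157723 (14 and 82) and chromosome 7 from 170328161 to 170328671 (10 and 58). The log2 ratios of these 5 ran from 2.54 to 3.03. In the chromosome 5 pair the summits were 435 bp apart, the farthest of any pair in its group, whereas in the chromosome 6 pair they were 1 bp apart. In the other direction the ratios were small. The lowest was on chromosome 2 from 51861529 to 51861890, with 38 fragments in HA and 26 in YFP, a log2 ratio of -0.55. The next were on chromosome 6 from 43097153 (31 and 22), chromosome 1 from 166323329 (91 and 75), chromosome 10 from 102495923 (35 and 29) and chromosome 3 from 38715698 (40 and 34). No strong pair had an HA summit as much as double the YFP summit, which is a log2 ratio of -1.

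The lean toward YFP was clearest at middle summed heights and small at the lowest and the highest. Over all 627 pairs, 481 had the higher summit with YFP, 93 with HA and 53 were equal, and the median log2 ratio was 0.68 (quartiles 0.08 and 1.48). By summed height the median was 0 at 4 to 7 fragments (13 pairs) and at 8 to 9 (56 pairs). It was 0.68 at 10 to 19 (273 pairs) and 1.58 at 20 to 49 (187 pairs). It was lower again at 50 to 99, at 0.98 (48 pairs), 0.19 from 100 to under 200 (40 pairs) and 0.07 at 200 or more (10 pairs). A pair exists only where both libraries passed the authors' threshold, which limits how far the ratio can go at a low summed height.

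Summits without a peak of the other tag reached 36 fragments with YFP and 23 with HA. The highest of them in YFP were at 253281535 to 253281841 of chromosome 1 (36 fragments, score 673), at 70899835 to 70900220 of chromosome 4 (32 fragments, score 914), at 232038769 to 232039180 of chromosome 1 and 194392230 to 194392520 of chromosome 4 (29 fragments each), and at 261590501 to 261590785 of chromosome 1 (28 fragments). The nearest HA summit was at least 110 kb from each. In HA the highest was on chromosome 6 from 20612211 to 20612878 (23 fragments), with a score of 95.9, and a YFP summit of 6 fragments stood 976 bp from it. Next came a neighbouring pair on chromosome 1, from 38261915 to 38262621 and from 38266446 to 38267150, with 14 and 13 fragments and widths of 707 and 705 bp. The last 2 were on chromosome 4, from 51608362 to 51608701 and from 172425111 to 172425782, with 12 fragments each, and the second closes the HA cluster described above. Of these 5 HA summits, 2 had scores under 90 despite their height, 88.8 and 68.9, whereas the lowest score of the 5 YFP peaks was 504.

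Peaks were narrow, and those of 2 or 3 fragments had larger median widths than those of 4 or of 5 to 9. HA widths had a median of 345 bp and began at 182 bp, and YFP widths had a median of 284 bp and began at 153 bp. The commonest width was 334 bp in HA, with 14.9% of peaks within 10 bp of it, and 273 bp in YFP, with 24.2%. Width did not simply climb with height. In HA the median width was 455 bp at a height of 2, 437 bp at 3 and 285 bp at 4, then 338 bp at 5 to 9 and 565 bp at 50 or more. In YFP it was 381, 354, 260, 277 and 474.5 bp for the same heights. In overlapping pairs the HA peak was the wider in 451 of 627 (71.9%).

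Several of the widest peaks were wide with both tags. On chromosome 8 the HA peak of 6109 bp faced a YFP peak of 3262 bp, on chromosome 2 from 54763016 to 54764842 the widths were 1752 bp in HA and 1784 bp in YFP, and on chromosome 6 from 29100895 to 29102755 they were 1149 and 1826 bp. The widest YFP peak was on chromosome 1 from 271345219 to 271348597, with 3379 bp and 13 fragments. It lies in one of the crowded windows, and HA had 3 peaks beneath it, none wider than 594 bp or higher than 5 fragments. The summit of the chromosome 2 region lay near its start with both tags, at 10.1% of the width in HA and 13.2% in YFP.

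Summits sat at or very near the middle of most peaks, at a rate that depended on height in a like way for both tags. Both lists come from the same peak finder, which also set the peak edges. How far the likeness of the tags comes from it was not tested, so it is not given as a trait of RA1. The stretch from 25 to 75% of the width held 95.03% of HA summits (94.2 to 95.8) and 94.9% of YFP summits (94.3 to 95.5). Within 2% of the width from the exact middle lay 56.8% of HA (55.0 to 58.6) and 59.8% of YFP summits (58.4 to 61.2). At a height of 4 these shares were 85.9% and 84.9%. At a height of 2 they were 1.70% and 3.40%, and there 57.3% of HA and 63.7% of YFP summits stood at 30 to 40% or 60 to 70% of the width, to one side or the other. Peaks with a height of 3 were the most lopsided, with 80.2% of HA (75.7 to 84.2) and 80.9% of YFP summits (77.7 to 83.9) between 25 and 75% of the width. Their off-centre summits were balanced, with 134 HA summits in the first 40% of the width and 135 in the last 40%, and 210 and 205 for YFP.

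The place of the summit spread out again among high peaks. Within 2% of the middle lay 69.1% of HA summits at heights of 5 to 9, 37.5% at 20 to 49 and 9.76% at 50 or more (2.72 to 23.1, 41 peaks). In YFP these shares were 73.6%, 51.0% and 17.6% (9.47 to 28.8, 68 peaks). The high peaks still kept 92.7% and 91.2% of their summits between 25 and 75% of the width. Whether a peak overlapped the other tag went with only small shifts. In HA 59.97% of overlapping (56.0 to 63.8) and 55.9% of other peaks (53.8 to 58.0) had the summit within 2% of the middle, and in YFP 55.3% (51.3 to 59.3) and 60.5% (58.96 to 61.9). The shifts thus had opposite signs, and the intervals overlapped in both lists.

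**Figure D5:**
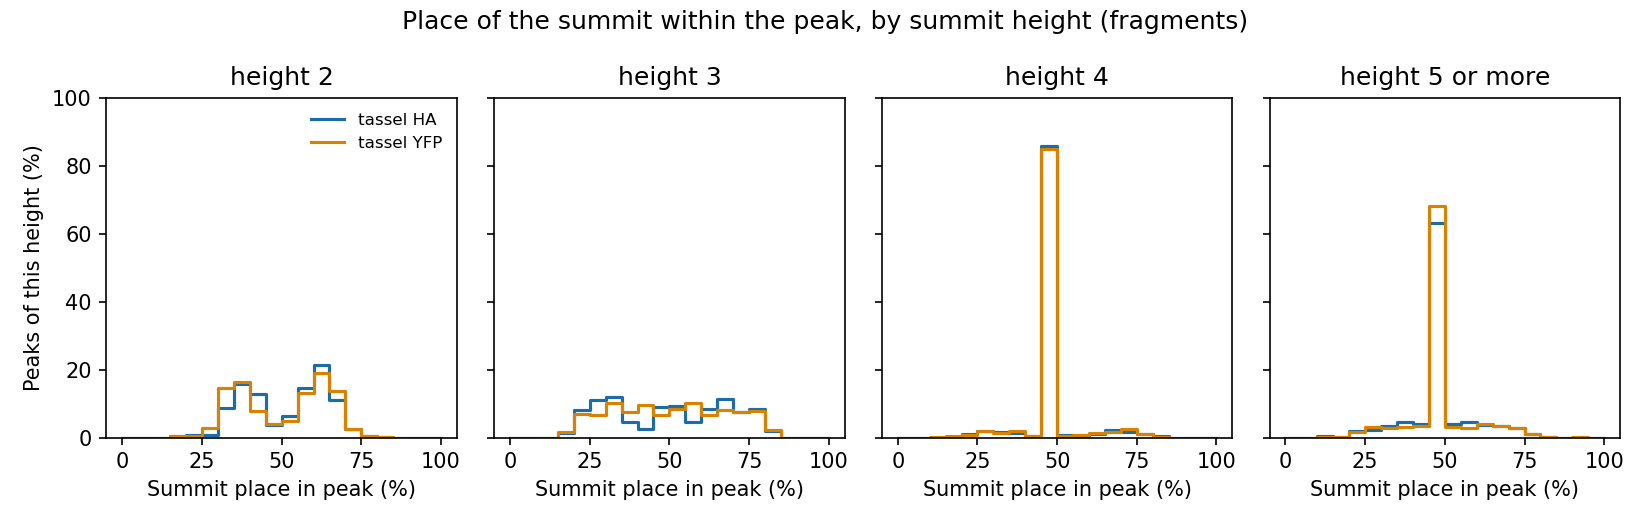
Place of the summit as a percentage of the peak's width from its start (x, steps of 5%) against the share of peaks of that summit height (y, percent), for heights of 2, 3, 4 and 5 or more fragments in tassel HA and tassel YFP. At a height of 4 most summits fall in the step just before the middle; at a height of 2 they fall to either side.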

How the data were processed

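The 2 tassel ChIP lists of peaks and summits were used, and the ear lists were not used here. Peaks were found by the authors with MACS 1.4.0rc2 and CASAVA is also named, per the submitters' processing notes. The series text gives a p-value limit of 1e-05 for enrichment over input. The sources used here name no aligner or filter and do not say which input was set against each library. The score that the authors deposited is read as 10 times the negative log10 of p, since no score is below 50. The signal in column 5 of the deposited summit lists is the whole-fragment pileup height, not scaled to depth, and total reads are unknown. Starts were shifted by 1 for printing.

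Overlaps, windows, gaps and intervals were computed with pandas 2.3.3, scipy 1.17.1 and numpy 2.4.6 in Python 3.11.15 and plotted with matplotlib 3.10.9. The code was tested on simulated lists. Windows start at the first base of a chromosome and count summits. Regions were named by a rule: the 10 most crowded windows, the 5 longest empty stretches, the 10 highest pairs, the 5 highest unpaired summits, largest clusters and widest peaks of each list, and the 5 most extreme ratios each way. Members, lists and rules were chosen with earlier results of these data known. Genes and sequence at the peaks were not analysed here. A count of 0 allows up to 3.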

Additional observations from a re-analysis of the deposited data

Results flagged for a closer look

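Some peaks lie outside the 10 chromosomes and entered no comparison above. YFP had 26 peaks on the organelle genomes, 18 mitochondrial and 8 plastid, which is above the 3 that a count of 0 allows. That limit is a floor for a single count and does not compare the lists. The HA list had 1 organelle peak, and the difference between the lists was not tested. The YFP organelle peaks were wider than those of the chromosomes, with a median of 1421 bp, and higher, with a median of 13 fragments and 17 of the 26 at 10 or more. The single HA organelle peak was mitochondrial, 314 bp wide and 6 fragments high.

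On the unplaced sequence the lists were in the opposite order, with 37 peaks in HA and 6 in YFP, each above the same limit. This difference was not tested either. The HA peaks there had a median height of 5 fragments and a highest of 13, and the YFP peaks a median of 4 and a highest of 7.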

How the results depend on the processing

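Of the alternative values, 39 moved and 17 did not, where a share counts as moved outside its reported interval and a correlation or median once it differs as printed, and no correlation changed sign. Requiring an overlap of 0.5 of the shorter peak changed neither overlap share beyond its interval. With summits within 100 bp the HA and YFP shares were 19.5% and 11.7%, at scores of at least 100 they were 55.8% and 17.6%, and at heights of at least 5 they were 64.3% and 21.7%. At equal list lengths the YFP share was 20.8%. The window r was 0.26 at 0.5 Mb, 0.43 at 5 Mb, 0.60 at 10 Mb, 0.36 at scores of at least 100, 0.43 at heights of at least 5 and 0.10 without shared peaks. Windows without an HA peak were 50.8% at 0.5 Mb, 7.66% at 2 Mb and 77.6% at scores of at least 100. For YFP these were 34.2%, 2.42% and 46.7%, and 27.9% at equal lengths. Gaps under 5 and 20 kb were 3.002% and 5.97% in HA and 4.91% and 9.44% in YFP. Gaps under 10 kb were 1.72% in HA and 5.24% in YFP at scores of at least 100, 5.24% in YFP at heights of at least 5, and 5.62% in YFP at equal lengths. Summits between 25 and 75% of the width were 96.1% and 97.1% (HA, YFP) at scores of at least 100, 96.2% and 96.6% at heights of at least 5, and 93.0% and 87.9% at widths of at least 300 bp. The median height was 6 and 8 at scores of at least 100, 6 and 12 in shared peaks, and 5 in YFP at equal lengths. Fewer peaks enter under each limit on score, height or width, and the cause of the other shifts was not tested. The windows of 5 and 10 Mb, the equal-length gaps and the alternatives for strong pairs were chosen after seeing the data. The intervals of the 2 groups of strong pairs on the span overlapped under each of their 4 alternatives. The pairs higher with YFP kept the larger share in each, and overlapping intervals do not decide whether the groups differ. The shares were 35.2% against 57.6% at summed heights of at least 30, and 28.2% against 66.7% (the latter of 9 pairs) at 100. They were 28.3% against 61.5% at tighter ratio limits and 38.1% against 63.6% at HA heights of at most 53.

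No paired analysis was possible because each tag has 1 library and the labels give no replicate numbers. Small counts limit the low end: a height of 2 to 4 fragments is within a few fragments of none, so a missing partner there does not show that RA1 was absent.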
